A study of Mus musculus with 8 samples.

Results

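Expression of 8 genes of neutrophils and of the interleukin-1 response was followed in RNA from the intestine of 8 mice. They are S100a8, S100a9, Cxcr2, Csf3r, Retnlg, Il1b, Cxcl2 and Mmp9, 8 of the 49585 gene identifiers in the deposited table. They were listed by symbol and chosen by their FPKM values in these libraries, single libraries with high values among them, so their levels and group differences are a description and carry no test. The mice were of strain C57BL/6, 4 labelled Klebsiella recipients and 4 labelled Lactobacillus recipients (both are genera of gut bacteria). The labels give a separate mouse number for each library. The sources used here do not say what the recipients received or for how long, nor their age, their sex or which part of the intestine was frozen. Libraries are called Klebsiella replicates 1 to 4 and Lactobacillus replicates 1 to 4 after the mouse numbers.

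Neutrophils are short-lived white cells that leave the blood for inflamed tissue. They follow CXC chemokines through the receptor CXCR2, and G-CSF, acting through its receptor CSF3R, drives their production. Interleukin-1 beta, made mainly by activated myeloid cells, makes epithelial, stromal and endothelial cells release such chemokines. In the gut, S100A8 and S100A9 together form calprotectin, a metal-binding protein that is measured in stool as a marker of neutrophils.

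The values are FPKM, which divide the reads of a gene by its length and by the size of the library. Each value rests on a whole number of reads. Those reads could be recovered for genes above 0 in at least 2 libraries, the 8 genes among them. For genes above 0 in only 1 library the depth is not known. Where a gene's length did not match, a factor common to all its libraries could be missed. Between 15781113 and 21602620 reads in genes were recovered per library, and Klebsiella replicate 4 stood in the middle of that range with 17352191. Its share of bases at or above quality 30 was the lowest, 90.65% against 94.03% to 94.57% elsewhere, and the part of this in its values was not tested. Markers of colon epithelium summed to 3168 to 8481 FPKM and those of small intestine epithelium to 22.3 to 80.5 FPKM. Of the 10 small intestine genes, 4 had a mean of at least 0.5 FPKM (Rbp2, Fabp6, Slc10a2 and Alpi). Rbp2 was at 8.63 to 75.1 FPKM and Fabp6 at 3.04 FPKM or more, while Slc10a2 and Alpi reached 6.09 and 5.35 FPKM. Apoa4, a small-intestinal apolipoprotein of the same list, was at most 0.0349 FPKM. Klebsiella replicate 3 and Lactobacillus replicate 2 stood apart in Hoxb6, a homeobox gene of position along the gut, at 40.2 and 45.2 FPKM against 1.16 to 3.87. Hoxd13, a homeobox gene of the hindgut, was at 46.3 FPKM in Klebsiella replicate 1 and 2.20 to 8.03 FPKM in Klebsiella replicates 2 to 4, against 19.1 to 43.9 FPKM in the Lactobacillus libraries. It was low in Klebsiella replicate 4 (8.03 FPKM), and its part in the results was not tested. Klebsiella replicate 2 and Lactobacillus replicate 3 held 418 and 112 FPKM of the pancreatic protease Ctrb1, against at most 2.99 elsewhere.

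All 8 genes were scarce, and 1 mouse stood above the rest for most of them. Klebsiella replicate 4 had the highest FPKM for 7 of the 8 genes, and for 5 of them (S100a8, S100a9, Cxcr2, Csf3r and Retnlg) it was at least 2-fold above the next library. Il1b was as high in Klebsiella replicate 2 as in replicate 4, and Mmp9 was nearly level across the mice. The 8 genes together gave 608 reads in Klebsiella replicate 4, or 35.0 RPM (scaled to the library's recovered reads). In the other libraries they gave 121 to 349 reads, or 5.69 to 18.2 RPM. Mean levels over the 8 libraries ran from 6.09 FPKM for Il1b and 2.94 for Mmp9, through 1.74 for S100a9, 1.67 for S100a8, 1.20 for Retnlg and 1.03 for Csf3r, to 0.181 for Cxcl2 and 0.112 for Cxcr2. In tissue RNA, more cells of a type and more RNA per cell cannot be told apart.

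**Figure D1:**
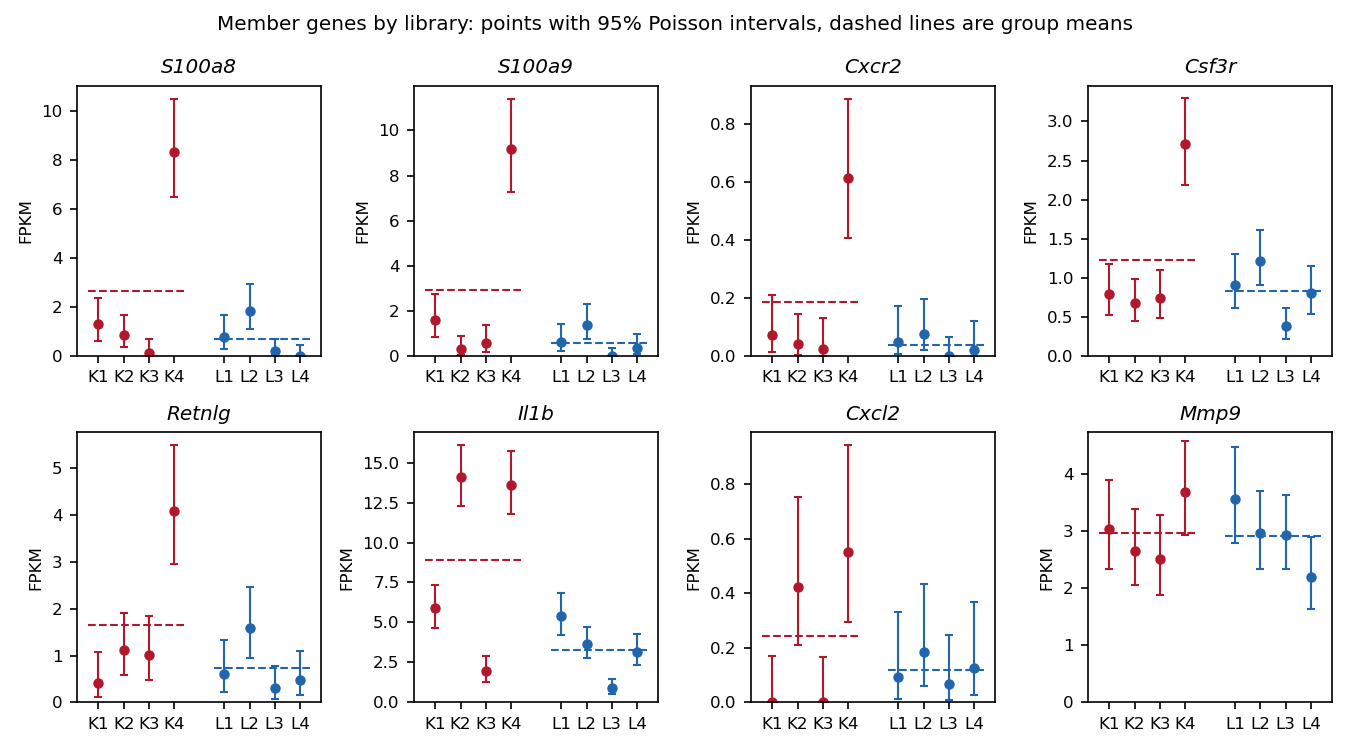
FPKM of each of the 8 genes (vertical axis) in the 4 Klebsiella libraries (K1 to K4, red) and the 4 Lactobacillus libraries (L1 to L4, blue). Points are libraries, bars are exact 95% Poisson intervals of the reads (counting error only) and dashed lines are group means; K4 stands above every other library for S100a8, S100a9, Cxcr2, Csf3r and Retnlg, while Il1b is high in K2 and K4 and Mmp9 is nearly level.

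The calprotectin genes were high in 1 mouse. S100a8 was at 1.29, 0.846, 0.125 and 8.32 FPKM in the Klebsiella mice 1 to 4 and at 0.762, 1.85, 0.188 and 0 FPKM in the Lactobacillus mice 1 to 4. These values rest on 10, 8, 1 and 71 reads and on 6, 18, 2 and 0 reads. Klebsiella replicate 4 was high and the other 7 libraries were low in both groups, so the groups overlapped. S100a9 was at 1.60, 0.303, 0.594 and 9.16 FPKM in the Klebsiella mice 1 to 4 (13, 3, 5 and 82 reads). In Lactobacillus replicates 1 to 4 it was at 0.605, 1.37, 0 and 0.332 FPKM (5, 14, 0 and 3 reads). The same library was high, and it was 5.74-fold above the next for S100a9 and 4.5-fold for S100a8. The 95% Poisson intervals in Klebsiella replicate 4, which cover counting error only, were 6.49 to 10.5 FPKM for S100a8 and 7.28 to 11.4 FPKM for S100a9. The highest upper bounds in any other library were 2.92 and 2.73 FPKM. The 0 reads of S100a8 in Lactobacillus replicate 4 allow up to 0.348 FPKM, and those of S100a9 in Lactobacillus replicate 3 up to 0.269 FPKM, taking 3 reads as the limit. The 95% Poisson bounds for 0 reads, which the plot of values by library shows, are 0.428 and 0.331 FPKM. The mean of S100a8 was 2.64 ± 3.81 FPKM over the Klebsiella and 0.700 ± 0.832 FPKM over the Lactobacillus mice, and S100a9 at 2.91 ± 4.20 against 0.577 ± 0.585 (SD, n = 4 each). The differences of mean log2(FPKM + 0.5) were 0.93 (SE 0.94) and 1.09 (SE 0.89), each about as large as its own error. Without Klebsiella replicate 4 they were 0.19 and 0.35.

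S100a8 and S100a9 are neighbours on mouse chromosome 3 in GENCODE release M21 (GRCm38). S100a8 (ENSMUSG00000056054) lies from 90668978 to 90670035 on the plus strand and S100a9 (ENSMUSG00000056071) from 90692632 to 90695721 on the minus strand. They are 22596 bases apart with 0 annotated genes lying wholly between them. Their starts are shown because the pair had its highest level in the same library. Each stretch runs from 250 bases before to 50 bases after the start, from RefSeq (GRCm38.p6), and capitals mark matches to TTNNGNAA, the pattern of C/EBP factors, which drive granulocyte genes, on either strand.
S100a8, chr3:90668821-90669120, plus strand: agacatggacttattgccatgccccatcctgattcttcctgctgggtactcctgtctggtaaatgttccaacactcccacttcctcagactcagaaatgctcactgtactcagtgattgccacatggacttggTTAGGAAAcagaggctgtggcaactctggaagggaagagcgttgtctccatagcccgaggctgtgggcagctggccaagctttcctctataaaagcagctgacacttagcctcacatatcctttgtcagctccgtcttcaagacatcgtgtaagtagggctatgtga
S100a9, chr3:90695672-90695971, minus strand: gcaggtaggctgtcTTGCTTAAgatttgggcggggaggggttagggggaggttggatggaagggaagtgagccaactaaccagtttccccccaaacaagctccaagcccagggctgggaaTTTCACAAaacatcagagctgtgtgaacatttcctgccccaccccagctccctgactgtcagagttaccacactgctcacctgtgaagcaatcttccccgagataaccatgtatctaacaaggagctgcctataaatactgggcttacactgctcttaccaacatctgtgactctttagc
S100a8 held 1 match and S100a9 held 2. The pattern is common: 40.7% of 32851 promoters of the same length hold at least 1, so these matches describe the letters and not binding. The looser pattern of NF-kB (GGG, any bases, then CC, 10 bases in all), held by 50.8% of promoters, had 0 matches in either stretch, and PU.1's GAGGAA, held by 28.3%, had 2 in S100a8 and 0 in S100a9.

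The neutrophil receptors showed the same library high at lower levels. Csf3r, on chromosome 4 from 126024550 to 126044440, was at 0.798, 0.681, 0.742 and 2.71 FPKM in the Klebsiella mice 1 to 4 (26, 27, 25 and 97 reads). In Lactobacillus replicates 1 to 4 it was at 0.907, 1.22, 0.381 and 0.801 FPKM (30, 50, 17 and 29 reads). Apart from Klebsiella replicate 4, the Klebsiella libraries were closely alike and lay within the Lactobacillus range. Cxcr2, on chromosome 1 from 74153989 to 74161246, was at 0.0722, 0.0395, 0.0233 and 0.613 FPKM in the Klebsiella mice 1 to 4 (3, 2, 1 and 28 reads). In Lactobacillus replicates 1 to 4 it was at 0.0474, 0.0768, 0 and 0.0217 FPKM (2, 4, 0 and 1 reads), where 0 reads allow up to 0.0527 FPKM. Klebsiella replicate 4 was 7.98-fold above the next library. Outside it, Cxcr2 was thus at the edge of detection, with at most 4 reads. The receptor Csf3r had a log2 difference between the groups of 0.28 (SE 0.40), which became -0.06 without that library, and Cxcr2 one of 0.28 (SE 0.26), which became 0.02. Cxcr2 fell below the level used for testing (a mean of 0.5 FPKM), and a pseudocount of 0.5 compresses differences at such levels. With a pseudocount of 0.1 its log2 difference was 0.68.

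Retnlg encodes a small secreted protein of the resistin-like family found in mouse granulocytes, and lies on chromosome 16 from 48872621 to 48874496. It was at 0.417, 1.11, 1.01 and 4.08 FPKM in the Klebsiella mice 1 to 4 (4, 13, 10 and 43 reads) and at 0.616, 1.58, 0.305 and 0.469 FPKM in the Lactobacillus mice 1 to 4 (6, 19, 4 and 5 reads). Klebsiella replicate 4 was again the highest, 2.58-fold above Lactobacillus replicate 2, and the groups overlapped. Retnlg had a log2 difference of 0.62 (SE 0.57), and of 0.17 without Klebsiella replicate 4. Lactobacillus replicate 2 was the second highest library for 4 of the 8 genes (S100a8, Cxcr2, Csf3r and Retnlg), and Lactobacillus replicate 3 was the lowest for 5 (S100a9, Cxcr2, Csf3r, Retnlg and Il1b).

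Mmp9, the gelatinase that neutrophils carry in granules and that macrophages and stromal cells also make, did not share the contrast. The gene, on chromosome 2 from 164940780 to 164955850, was at 3.03, 2.65, 2.51 and 3.69 FPKM in the Klebsiella mice 1 to 4 and at 3.57, 2.97, 2.93 and 2.20 FPKM in the Lactobacillus mice 1 to 4. These values rest on 50 to 83 reads per library. The FPKM of Mmp9 varied 1.68-fold from the lowest mouse to the highest, against 13.4-fold for Retnlg and 15.4-fold for Il1b. Klebsiella replicate 4 was the highest by 1.04-fold. The group means of Mmp9 were 2.97 ± 0.529 and 2.92 ± 0.559 FPKM (SD, n = 4 each), with a log2 difference of 0.03 (SE 0.16). The FPKM of Mmp9 rests on a length of 1295 bases, near the mean of its 4 annotated transcripts, which run from 416 to 3175 bases. Its level per length is therefore higher than it would be for the longest transcript.

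The interleukin-1 branch had another pattern. Il1b, on chromosome 2 from 129364570 to 129371139, was at 5.88, 14.1, 1.97 and 13.6 FPKM in the Klebsiella mice 1 to 4 (75, 219, 26 and 191 reads). In Lactobacillus replicates 1 to 4 it was at 5.41, 3.63, 0.917 and 3.18 FPKM (70, 58, 16 and 45 reads). Klebsiella replicates 2 and 4 were high, and Klebsiella replicate 3 lay below 3 of the 4 Lactobacillus libraries. The 95% Poisson intervals of the high libraries, 12.3 to 16.1 and 11.8 to 15.7 FPKM, overlapped each other. The group means of Il1b were 8.90 ± 5.96 and 3.28 ± 1.85 FPKM (SD, n = 4 each), with a log2 difference of 1.17 (SE 0.75). Of the 8 genes it kept the most of its difference without Klebsiella replicate 4, at 0.87. It was 0.44 without Klebsiella replicate 2 and Lactobacillus replicate 3, the pair with high Ctrb1. They were also the highest and the lowest library in Il1b, so leaving them out had to lower its difference. The sources used here do not say whether counting used strand. The antisense gene Il1bos, which overlaps Il1b, had at most 5 reads in any library.

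Cxcl2, a chemokine that binds CXCR2, was near the limit of detection. On chromosome 5 from 90903871 to 90905938, it was at 0, 0.422, 0 and 0.552 FPKM in the Klebsiella mice 1 to 4 (0, 11, 0 and 13 reads) and at 0.0920, 0.186, 0.0682 and 0.126 FPKM in the Lactobacillus mice 1 to 4 (2, 5, 2 and 3 reads). The highest libraries were those that were high in Il1b. The 0 reads in Klebsiella replicates 1 and 3 allow up to 0.140 and 0.135 FPKM, which lies above 3 of the 4 Lactobacillus values. Cxcl2 had a log2 difference of 0.19 (SE 0.29), and of -0.23 with limma voom on the recovered reads, so its sign differed between the fits.

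The starts of Cxcl2 and Il1b are shown because these genes were high in the same pair of libraries and differ in the letters of their promoters. Capitals mark matches to the NF-kB pattern above or to TTNNGNAA (C/EBP) on either strand, in the same RefSeq windows.
Cxcl2, chr5:90903649-90903948, plus strand: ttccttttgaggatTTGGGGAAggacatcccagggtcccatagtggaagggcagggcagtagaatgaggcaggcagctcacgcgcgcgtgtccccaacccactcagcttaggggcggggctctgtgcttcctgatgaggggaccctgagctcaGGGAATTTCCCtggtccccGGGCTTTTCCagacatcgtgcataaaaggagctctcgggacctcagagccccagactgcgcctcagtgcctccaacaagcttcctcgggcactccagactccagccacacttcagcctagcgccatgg
Il1b, chr2:129371090-129371389, minus strand: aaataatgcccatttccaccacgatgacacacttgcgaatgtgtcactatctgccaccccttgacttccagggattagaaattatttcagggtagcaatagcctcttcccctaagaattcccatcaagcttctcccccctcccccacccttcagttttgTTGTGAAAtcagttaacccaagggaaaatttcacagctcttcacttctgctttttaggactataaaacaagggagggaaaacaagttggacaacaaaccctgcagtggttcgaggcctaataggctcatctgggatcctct
Cxcl2 held 3 NF-kB matches, 2 of which overlap each other, and 1 C/EBP match, while Il1b held 0 and 1. AP-1's TGANTCA, held by 7.81% of promoters, had 0 matches in the 7 members with a promoter in the table. The absence of a match says only that these letters are not in this window.

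Read across the 8 libraries, the genes fell into pairs that tracked each other closely and others that did not. Correlations of log2(FPKM + 0.5) over 8 libraries are given without a test, and they share library depth and the one high library. S100a8 and S100a9 had a Pearson r of 0.91 (Spearman rho 0.71), and 0.71 (rho 0.57) over the 7 libraries other than Klebsiella replicate 4. S100a9 and Cxcr2 had an r of 0.93 (rho 0.90) and still 0.93 (rho 0.86) without that library, from at most 14 and 4 reads per library. S100a9 and Retnlg went from 0.82 (rho 0.48) to 0.39 (rho 0.21), and S100a9 and Cxcl2 from 0.51 (rho 0.16) to -0.23 (rho -0.27). Il1b and Cxcl2 had an r of 0.75 (rho 0.57), and 0.63 (rho 0.40) without it. Mmp9 and Retnlg went from 0.44 (rho 0.29) to -0.05 (rho -0.07).

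The comparison of the recipient groups gave no call among the genes tested. Of 16865 genes with a mean of at least 0.5 FPKM, limma with Benjamini-Hochberg adjustment called 0 (0.0%), 1024 (6.07%) had an unadjusted p under 0.05, and limma voom on the recovered reads also called 0. Of the 8 genes described here 6 entered that fit and 0 were called. The groups were apart, with no overlap, for 0 of the 8. Of all genes tested 2.99% were apart, 1.19% with Klebsiella higher and 1.8% with Klebsiella lower. For all 8 the log2 difference was above 0 (median 0.45), and this count was 5 without Klebsiella replicate 4. Of all genes tested 46.4% had a positive difference and the median was -0.017. Of the same genes 13.5% had their highest value in Klebsiella replicate 4, and 0.504% were at least 2-fold above the next library there. Some library, whichever it was, stood that far above the next for 2.44% of genes. Because the members were listed with such values known, nothing is read from their own counts against these shares.

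**Figure D2:**
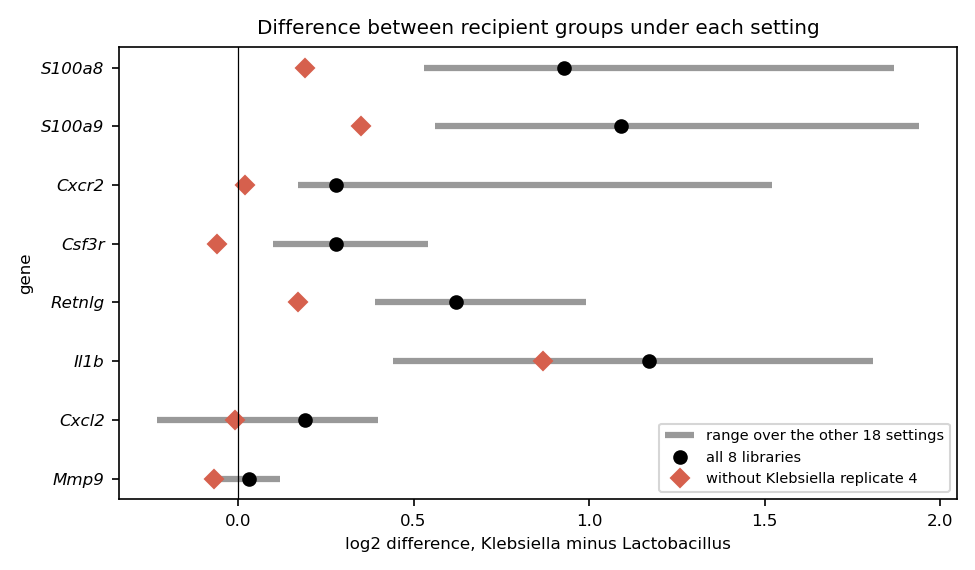
Log2 difference between the recipient groups (Klebsiella minus Lactobacillus, horizontal axis) for each of the 8 genes. The scale is log2(FPKM + 0.5) except for voom and for the alternatives with a pseudocount of 0.1 or 1. Black points use all 8 libraries, red diamonds leave out Klebsiella replicate 4 and grey bars span the other alternatives; for S100a8, S100a9, Cxcr2, Csf3r and Retnlg the diamond lies below the whole grey bar.

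Other genes of the same cells and pathway were taken from lists, and their values are set beside those of the 8 genes. Of 34 other neutrophil granule and surface genes, 11 had enough reads to be tested, limma called 0 higher and 0 lower, 5 of 11 had a positive difference, and the median was -0.03. Granule genes of maturing neutrophils were low: Ngp was listed at 0 in every library, and Elane reached 0.0689, Mpo 0.146, Camp 0.304 and Prtn3 0.451 FPKM. Ltf, the iron-binding lactoferrin, was at 0.169 FPKM (2 reads) in Klebsiella replicate 4, its lowest, and reached 1.1 FPKM (12 reads) in Lactobacillus replicate 1. Clec4d, a C-type lectin receptor of myeloid cells, was at 1.59 FPKM in Klebsiella replicate 4 against 0.0983 to 0.781 elsewhere, and Lcn2, the iron-siderophore binding protein made by neutrophils and epithelium, at 6.72 against 1.15 to 2.95 FPKM. These were the 2 of the 11 tested genes at least 2-fold above the next library there, where 0.504% of all tested genes were. Below the level used for testing, Mmp8 (0.190 against at most 0.0417 FPKM) and the lectin receptor Clec4e (0.214 against at most 0.0937 FPKM) were so too, each on 8 reads, and Stfa2l1 was at 0.278 FPKM there and listed at 0 elsewhere.

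Several genes used to mark neutrophils did not follow that library. Ly6g, the antigen used to sort mouse neutrophils, was at 40.0, 43.3, 36.9 and 65.7 FPKM in the Klebsiella mice 1 to 4 and at 72.8, 44.1, 67.1 and 178 FPKM in the Lactobacillus mice 1 to 4. It was highest in Lactobacillus replicate 4, where S100a8 had 0 reads. Its level was far above that of any of the 8 genes. Ly6g belongs to a family of similar genes, and the counting could assign their reads to it or its reads to them. Cd177, a surface glycoprotein of neutrophils, ranged from 61.7 to 188 FPKM and Slfn4, a myeloid Schlafen gene, from 4.18 to 18.7 FPKM. Their highest values were in Klebsiella replicate 1 and Lactobacillus replicate 4. The log2 differences between the groups were -0.79 for Ly6g, 0.27 for Cd177, -0.20 for Slfn4 and 0.48 for Clec4d (limma adjusted p 0.774, 0.881, 0.924 and 0.799). So the genes listed here as neutrophil genes did not share 1 high library. S100a8, S100a9, Cxcr2, Csf3r and Retnlg had theirs in Klebsiella replicate 4, and Ly6g, Cd177 and Slfn4 had theirs elsewhere. Ly6g and Cd177 were far above the 8 genes in every library, and which cells gave their reads was not tested.

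**Figure D3:**
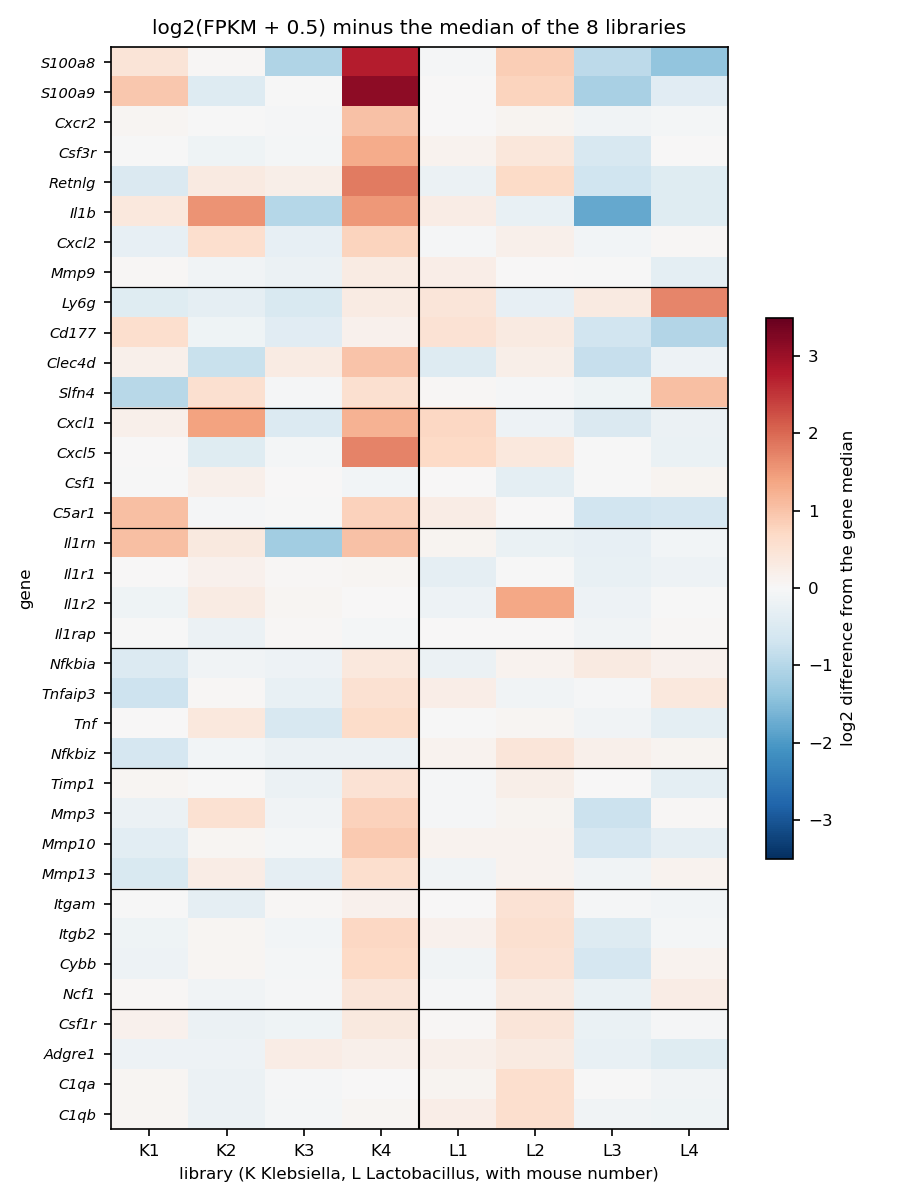
Log2(FPKM + 0.5) minus the gene's median over the 8 libraries (colour, red above and blue below) for the 8 genes at the top and for named genes of 7 related lists under them (rows), by library (columns, K Klebsiella and L Lactobacillus with the mouse number). The K4 column is darkest for S100a8, S100a9 and Retnlg; Ly6g is darkest in L4, and the macrophage genes C1qa and C1qb at the bottom are highest in L2.

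Among other neutrophil attractants and growth factors 6 of 15 genes could be tested, 0 were called, and 6 of 6 had a positive difference, with a median of 0.22. Cxcl1, a chemokine of the same receptor as Cxcl2, was at 0.359, 1.51, 0.0434 and 1.27 FPKM in the Klebsiella mice 1 to 4 and at 0.752, 0.179, 0.0328 and 0.162 FPKM in the Lactobacillus mice 1 to 4. The libraries highest in Cxcl1 were those highest in Il1b, Klebsiella replicates 2 and 4, which were the highest pair for 3.21% of all genes tested. Cxcl5, an epithelial CXCR2 ligand, was instead at 2.01 FPKM in Klebsiella replicate 4 and 0.0606 to 0.727 FPKM elsewhere, with Klebsiella replicate 2 the lowest. C5ar1, the receptor of complement C5a, was at 5.77 ± 2.36 against 3.29 ± 1.19 FPKM, and Csf1, the macrophage growth factor, at 13.4 ± 1.16 against 12.7 ± 1.68 FPKM (SD, n = 4 each). Their log2 differences were 0.70 and 0.08, against 0.62 for Cxcl1 and 0.11 for Cxcl5 (limma adjusted p 0.774, 0.903, 0.790 and 0.970).

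Receptors and regulators of interleukin-1 were mixed in direction. Of 23 genes of this list 17 were tested, 0 were called, 10 of 17 had a positive difference, and the median was 0.01. Il1rn, the receptor antagonist that blocks interleukin-1, was at 92.6, 56.6, 18.9 and 90.6 FPKM in the Klebsiella mice 1 to 4 and at 47.5, 37.9, 36.5 and 41.7 FPKM in the Lactobacillus mice 1 to 4. It was thus far more abundant per length than Il1b in every mouse, with its lowest level in Klebsiella replicate 3. Il1r1, the signalling receptor, ranged from 12.5 to 13.9 FPKM in the Klebsiella and from 9.94 to 12.4 FPKM in the Lactobacillus libraries. The groups did not overlap, but Il1r1 did not pass (difference 0.25 on the log2 scale, SE 0.10; adjusted p 0.774 by limma). Il1rap, its co-receptor, was at 5.08 ± 0.406 against 5.25 ± 0.302 FPKM, and the decoy receptor Il1r2 was at 2.70 FPKM in Lactobacillus replicate 2 against 0.617 to 1.04 FPKM elsewhere. The list's only tested gene at least 2-fold above the next library in Klebsiella replicate 4 was Il1rl1, the receptor of interleukin-33, at 7.97 against 0.254 to 3.33 FPKM. Il1rl1 had a difference of 1.08 and the cytokine Il18 one of -0.53 on the log2 scale (adjusted p 0.774 by limma for both). The log2 differences were 0.43 for Il1rn, -0.05 for Il1rap and -0.20 for Il1r2 (limma adjusted p 0.842, 0.945 and 0.912).

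NF-kB is the transcription factor that interleukin-1 signalling activates. Of 25 of its target genes 21 were tested, 0 were called, 11 of 21 had a positive difference, with a median of 0.07, and 9 of 21 (42.9%) had their highest value in Klebsiella replicate 4. An unadjusted limma p under 0.05 was seen for 5 of 21, and for 6.07% of all genes tested. The list was chosen with earlier results known, so this count is not read against that share. The largest positive log2 differences were 1.61 for Ccl2, 1.45 for Ccl7, 1.23 for Ptgs2 and 0.92 for Ier3. Each had a limma adjusted p of 0.774, and the groups overlapped. Tnf, which encodes tumour necrosis factor, was at 1.06, 1.51, 0.554 and 1.93 FPKM in the Klebsiella mice 1 to 4 and at 0.735 to 1.14 FPKM in the Lactobacillus libraries. Nfkbia and Tnfaip3, inhibitors within the pathway, were also highest in Klebsiella replicate 4, at 48.7 and 27.5 FPKM, but by no more than 1.13-fold. Nfkbiz, an atypical inhibitor of the family, was lower in all Klebsiella libraries, at 11.8 ± 1.72 against 16.8 ± 1.91 FPKM (SD, n = 4 each), and did not pass (difference -0.49 on the log2 scale, SE 0.13; adjusted p 0.774 by limma). The log2 differences of Tnf, Nfkbia and Tnfaip3 were 0.21, -0.21 and -0.22 (limma adjusted p 0.868, 0.814 and 0.856).

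Among other matrix metalloproteinases and their inhibitors 14 of 14 were tested, 0 were called, 10 of 14 had a positive difference, with a median of 0.12, and 6 of 14 (42.9%) were highest in Klebsiella replicate 4. The stromelysin Mmp10 was at 2.04 FPKM there against 0.403 to 0.979 FPKM elsewhere. Mmp3, another stromelysin, Mmp13, a collagenase, and the inhibitor Timp1 were at 1.86, 2.11 and 3.02 FPKM there, 1.26-, 1.32- and 1.28-fold above the next library. In the same list Mmp2, a gelatinase like Mmp9, and the inhibitor Timp2 were lowest in that library, at 35.5 against 43.0 to 56.6 FPKM and at 41.4 against 51.6 to 71.0 FPKM. Mmp3, Mmp10, Mmp13 and Timp1 had log2 differences of 0.41, 0.30, -0.00 and 0.13 (limma adjusted p 0.787, 0.835, 0.999 and 0.905).

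No tested relative of S100a8, S100a9 and Retnlg was highest in Klebsiella replicate 4. Of 13 other S100 and resistin-like genes 12 were tested, 0 were called, 5 of 12 had a positive difference, the median was -0.01, and 0 of 12 had their highest value in Klebsiella replicate 4. S100a6, a calcium-binding protein of many cell types, was at 1466 to 2105 FPKM, about level and far above the calprotectin genes. Retnlb, the resistin-like molecule of goblet cells, ranged from 20.6 to 660.1 FPKM, lowest in Klebsiella replicate 2 (20.6) and next in Lactobacillus replicate 4 (21.3). Retn, the fat hormone resistin, was at 0.461 ± 0.382 against 3.09 ± 3.20 FPKM (SD, n = 4 each; difference -1.60 on the log2 scale, SE 0.56; adjusted p 0.774 by limma), and Retnla, of macrophages and eosinophils, at 11.7 ± 3.49 against 12.7 ± 5.89 FPKM.

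**Figure D4:**
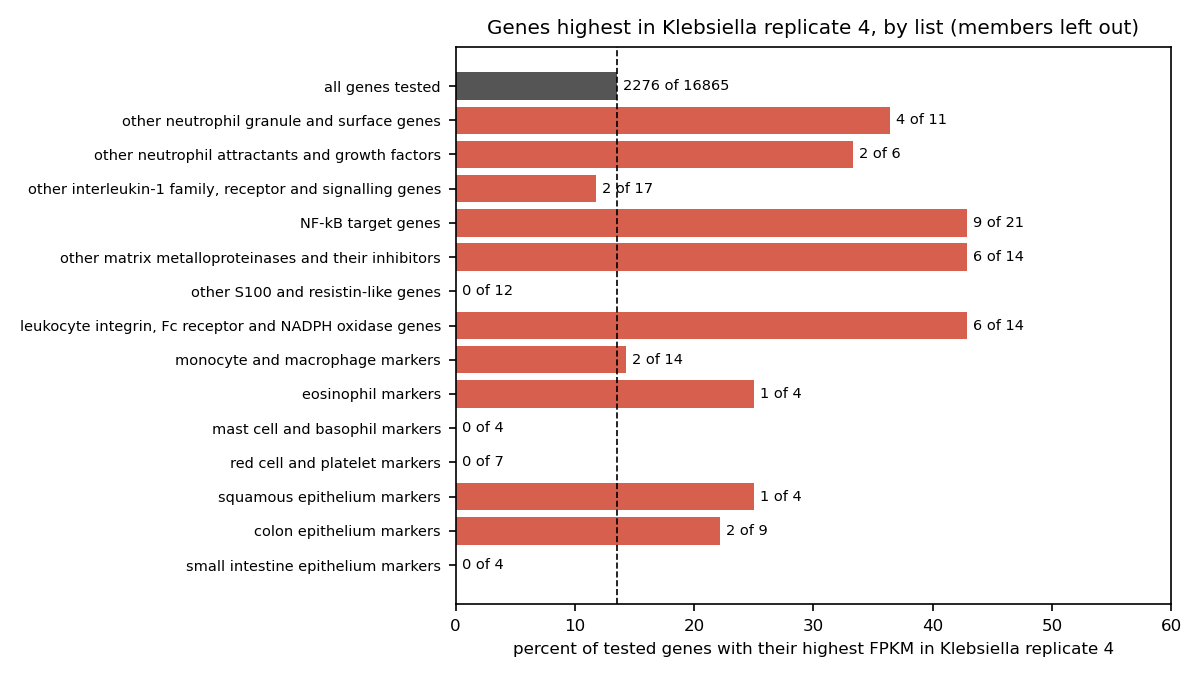
Percent of tested genes whose highest FPKM was in Klebsiella replicate 4 (horizontal axis), for all genes tested (grey bar and dashed line, 13.5%) and for each related list (red bars, the 8 genes left out), with counts beside the bars. NF-kB targets, metalloproteinases and the integrin, Fc receptor and oxidase list are at 42.9%, and macrophage markers at 14.3%.

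Markers of other cells were measured beside the 8 genes, and their part in the values was not tested. Leukocyte integrin, Fc receptor and NADPH oxidase genes, shared by neutrophils and other myeloid cells, summed to 399 to 511 FPKM in Klebsiella and 400.3 to 642 FPKM in Lactobacillus libraries. Most of that sum was Lyz2, at 141 to 246 FPKM, and Cyba, at 103 to 173 FPKM. Here 14 of 14 were tested, 0 were called, and 6 (42.9%) were highest in Klebsiella replicate 4, among them Cybb, the catalytic subunit of the oxidase, at 19 against 7.44 to 16.5 FPKM, and the integrin chain Itgb2 at 13.9 against 5.92 to 12.5 FPKM. Itgam, the partner chain of Itgb2 on myeloid cells, was highest in Lactobacillus replicate 2, at 2.05 FPKM against 0.953 to 1.48 FPKM. Monocyte and macrophage markers summed to 222 to 287 FPKM in Klebsiella and 249.9 to 374 FPKM in Lactobacillus libraries. Of these 14 markers 14 were tested, 0 were called, and 2 (14.3%) were highest in Klebsiella replicate 4. C1qa, a complement gene of tissue macrophages, was at 63.8 FPKM in Klebsiella replicate 4 and 94.7 FPKM in Lactobacillus replicate 2, the library second highest in S100a8, and Csf1r at 12.7 and 13.5 FPKM.

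Lists of rarer cells gave mixed values in the high library. Eosinophil markers summed to 8.42 FPKM in Klebsiella replicate 4, the highest, and to 3.20 to 7.23 FPKM elsewhere, with Ear1 and Ear6 listed at 0. Of 4 tested, 1 was highest there, the granule protein Prg2, at 2.82 against 0.585 to 2.17 FPKM. Siglecf was highest in Klebsiella replicate 3 (1.56 FPKM), and Ear2 and Alox15 in Klebsiella replicate 1 (2.64 and 2.5 FPKM). Below the level used for testing, the receptors Ccr3 and Il5ra were highest in Klebsiella replicate 4. They were at 0.564 against 0.0349 to 0.216 FPKM and at 0.939 against 0.171 to 0.471 FPKM. Epx, also below that level, was highest in Lactobacillus replicate 2 (0.0906 FPKM). Mast cell and basophil markers summed to 34.8 to 58.5 FPKM in Klebsiella and 32.8 to 45.6 FPKM in Lactobacillus libraries, with 34.8 in Klebsiella replicate 4. Most of that sum was the receptor gene Kit, at 27.4 FPKM there, and 0 of 4 tested were highest there. Below the level used for testing, Cpa3 and Mcpt8 were highest there, at 0.624 and 0.404 FPKM on 10 and 6 reads. Elsewhere they reached 0.555 and 0.236 FPKM. Fcer1a, Ms4a2, Mcpt4 and Tpsb2 were highest in other libraries. Red cell and platelet markers summed to 138 FPKM in Klebsiella replicate 4, within the 73.5 to 199.9 FPKM of the others, and 0 of 7 tested were highest there. Hbb-bs, a globin gene, was at 68.4 FPKM in that library and 99.2 FPKM in Lactobacillus replicate 3, which was the lowest in S100a9. Hbb-bs has a near-identical copy, so its reads are uncertain. Squamous epithelium, which can also express S100a8 and S100a9, had markers summing to 39.1 FPKM in Klebsiella replicate 4 and 43.5 FPKM in Klebsiella replicate 1. Most of that was Sprr1a, at 20.7 and 26.6 FPKM, while Krt5 reached 0.196 FPKM, Krt14 was at 0.450 FPKM in Klebsiella replicate 4, and Sprr3 was listed at 0.

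The genes whose pattern over the 8 libraries was most like the mean log2 value of the 6 tested members are given as a description. Their Pearson r was 0.949 to 0.986 (Spearman rho 0.786 to 0.929, n = 8 libraries). The genes here were picked for the highest r among the other named genes tested. Over 8 libraries such a search assures a high r. The closest was Diexf, which encodes a nucleolar protein, at 17.6 FPKM in Klebsiella replicate 4 and 10.2 to 12.8 FPKM elsewhere (r 0.986, and 0.93 over the 6 libraries left without Klebsiella replicate 4 and Lactobacillus replicate 3). Next came Ighv1-72, an antibody heavy chain variable segment, at 104 FPKM against 5.61 to 19.4 FPKM (r 0.968, and 0.75 over the same 6 libraries), then Dnttip2, Timm9, Ythdc2 and Sdad1. These 6 libraries also took part in the ranking, so an r over them is no separate check. For single genes, Csf3r was nearest to Lcn2 (r 0.955), Relt and Rbbp8, and Il1b to Snora28 (r 0.982), Med29 and Icam1, the endothelial adhesion molecule that leukocytes bind (r 0.978). Icam1 was at 11 FPKM in Klebsiella replicate 4 and 10.5 FPKM in Klebsiella replicate 2, against 4.92 to 8.67 FPKM in the others. S100a8 was nearest to Diexf, Igkv13-84 and Timm9, S100a9 to Gtf3c6, Gnl2 and Phf6, Retnlg to Tmem62, Lurap1l and Ccl22, and Mmp9 to Actr5, Fbxo34 and Rhno1.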

How the data were processed

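Total RNA from frozen mouse intestine was sequenced after TruSeq library preparation, per the labels' protocols. Tools named in the submitters' processing notes are DESeq2 1.10.1, HTSeq 0.6.0, STAR 2.5.1b and CASAVA, whose roles are not stated there. The sources used here do not give the genome build. FPKM values deposited by the authors cover 49585 identifiers, and GENCODE M21 names 49326 of them. They also deposited counts of filtered reads per library (40455910 to 55447220) and the percent of bases at quality 30 and of G or C.

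Reads behind FPKM were recovered as whole multiples (relative tolerance 1e-12) for each of the 26963 genes that at least 2 libraries hold above 0. The step of 1 read matched the mean transcript length in M21 within 1% for 85.1% of genes, so FPKM appears scaled by that mean length. Values were analysed as log2(FPKM + 0.5) for 16865 genes with a mean of at least 0.5 FPKM. limma 3.58.1 (R 4.3.3) then compared the recipient groups with a trended variance and two-sided tests, adjusted after Benjamini and Hochberg, at a threshold of 0.05. The fit was also run on simulated counts, which gave every gene the same dispersion and no library effect beyond depth. That run checked the code and does not give the power in libraries as varied as these. For the 8 genes the SE comes from the spread of the libraries in each group. Python 3.11.15 was used for the rest. Symbols of 3 list genes (Il36a, Il36g and Il36rn) were matched through synonyms.

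The members and lists were chosen with earlier results of these data known. Genes named are the 8 members, the first 4 of each list that passed the filter, and those most alike in pattern. Hoxb6, Hoxd13 and Ctrb1 were named to describe libraries. Other list genes named (Ngp, Elane, Mpo, Camp, Prtn3, Ltf, Mmp8, Clec4e, Stfa2l1, Lcn2, Il1rl1, Il18, Ccl2, Ccl7, Ptgs2, Ier3, Mmp2, Timp2, Lyz2, Cyba, Apoa4, Il22, Ly6c2, Cxcl10, Icam1, Ear1, Ear6, Ccr3, Il5ra, Epx, Cpa3, Mcpt8, Fcer1a, Ms4a2, Mcpt4, Tpsb2, Krt5 and Sprr3) were chosen after their values were seen. Alternatives are in the closing section. Mapping statistics were not used.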

Additional observations from a re-analysis of the deposited data

Results flagged for a closer look

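Within each group of 4 libraries a single library stood far from the other 3 for 12 of 112 groups checked (Dixon's test at its 95% critical value). That critical value gives about 1 in 20 for independent normal values. Here the values were FPKM without a log, genes shared libraries, and all 12 stood out on the high side. The count is therefore not read against that rate. The 8 members were not checked, since single high libraries were known when they were chosen. In Klebsiella replicate 4 this was the chemokine Cxcl5, at 2.01 FPKM against 0.0606 to 0.258 in the other Klebsiella libraries.

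In Lactobacillus replicate 2 the decoy receptor Il1r2 was at 2.70 FPKM and the integrin chain Itgam at 2.05 FPKM, with Car1 at 2947 and Slc10a2 at 6.00 FPKM. In Klebsiella replicate 3 Slc10a2 was at 6.09 FPKM. In Lactobacillus replicate 4 Slfn4 was at 18.7 and Slc26a3 at 630.4 FPKM. In Lactobacillus replicate 1 the squamous list's Sprr1a was at 11.7 and Lor at 2.88 FPKM. Gata2 was at 5.13 FPKM in Klebsiella replicate 1 and 4.30 FPKM in Lactobacillus replicate 3.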

How the results depend on the processing

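In each of 19 alternatives, 17 planned and 2 added after the data were seen, limma called 0 genes over the whole table and 0 in the related lists. Genes at an unadjusted p under 0.05 ranged from 438 (without the pair with high Ctrb1) to 2004 (without Lactobacillus replicate 1), against 1024. The count was 566 without Lactobacillus replicate 3 and 1825 when Klebsiella replicate 3 was left out or array weights were used. Of the 1024 genes 430 were higher in Klebsiella, against 591 of 1016 after rescaling to a constant total, 548 of 1019 with voom, 432 of 853 without Klebsiella replicate 4 and 734 of 1359 without the pair with high Hoxb6. The 8 members with a positive difference became 5 without Klebsiella replicate 4, the lowest of the counts that leave out 1 library (5 to 8). Csf3r, Cxcl2 and Mmp9 were then below 0. With voom on the recovered reads Cxcr2 had a log2 difference of 1.52. Over the alternatives the ranges were 0.19 to 1.87 for S100a8, 0.35 to 1.94 for S100a9, 0.17 to 0.99 for Retnlg and 0.44 to 1.81 for Il1b. The cause of these moves was not tested. With the mouse number as a replicate block 0 genes were called and 8 members were positive. Deviations from the group means in libraries that share a number had r of 0.189, -0.10, -0.0591 and -0.159. The range over all pairs of a Klebsiella and a Lactobacillus library was -0.312 to 0.189. These values cannot tell whether libraries with the same number shared a cage or a batch. Low reads limit Cxcr2 and Cxcl2 most, with 41 and 36 reads in all.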

Other observations

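Listed genes Il22, Ly6c2 and Cxcl10, chosen after their values were seen, were highest in the library with high S100a8. Il22, a cytokine that acts on gut epithelium, was at 3.32 FPKM in Klebsiella replicate 4 and at most 0.276 FPKM elsewhere, with a mean just under the level used for testing. Ly6c2, a marker of inflammatory monocytes, was at 29.8 FPKM there and 6.32 to 20.6 FPKM elsewhere, and Cxcl10, an interferon-induced chemokine, at 10.3 against 0.516 to 6.12 FPKM. None of these differences was tested between mice, since 1 library has no replicate. Between the recipient groups the log2 differences were -0.42 for Ly6c2 and 0.69 for Cxcl10 (limma adjusted p 0.844 and 0.86). Igkv13-84, an antibody light chain segment, was at 297 FPKM in Klebsiella replicate 4 and at 1.15 to 20 FPKM in the other 7.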
